A study of Mus musculus with 6 samples.

Results

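Among microglia from the tumor-bearing brain, 1081 barcodes carried the transcripts of the DNA replication machinery, and they are described here as replicating microglia. They were picked from 40411 barcodes of a single-cell RNA sequencing matrix, where a barcode stands for a droplet and a UMI for a captured mRNA molecule. A barcode was kept as microglial when it held over 200 genes, under 5% of its UMIs on mitochondrial genes and over 3% of its UMIs on Cst3, C1qa, C1qb, C1qc, P2ry12 and Tmem119, which left 38493 barcodes. A microglial barcode was called replicating when it held 4 or more UMIs on 10 replication genes (Mcm2, Mcm3, Mcm4, Mcm5, Mcm6, Mcm7, Hells, Rrm1, Tipin and Lig1) and more UMIs on these than on 8 mitosis genes (Ccnb2, Cdc20, Cenpa, Hmmr, Top2a, Mki67, Nusap1 and Prc1). The name stands for this rule, and DNA synthesis itself was not measured. The members were set against 14174 comparison microglia, which are microglial barcodes of at least 2000 UMIs with none of the 18 genes. A second reference was 189 mitotic microglia, which held 4 or more UMIs on the mitosis genes and more on these than on the replication genes, and 7 barcodes with equal numbers belonged to neither. The name mitotic also stands for a rule only, and the stage of these cells in the cycle was not measured.

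The cells were CD45+ immune cells, sorted from the hemisphere of female SCID mice in which U87 cells, a human glioma line, had been implanted at 8 weeks of age (the labels also give 6-8 weeks). SCID mice lack functional T and B cells but keep innate immune cells. Of 6 mice, 3 bore U87 tumors that expressed IL-33 and were taken at 3 weeks, and 3 bore U87 pcDNA control tumors and were taken at 6 weeks. Each mouse gave 1 library, and the 6 libraries are joined in 1 matrix. No label of the deposited data ties the suffixes 1 to 6 of the barcodes to mice. The matrix was therefore treated as 1 pooled sample, and the groups were not compared. The paper's supplement lists, by library, cell numbers and median UMIs that equal those of suffixes 1 to 6 in its order. This match was not used to assign suffixes to mice.

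Before a cell copies its genome, the MCM helicase is loaded onto origins of replication in G1, and it is fired at the start of S phase, when the replication fork is built around DNA polymerases, the PCNA clamp and factors that supply nucleotides and histones. Most of these genes are transcribed together at the G1/S boundary by E2F factors, while the genes of mitosis follow later, in G2 and M. Microglia are the resident macrophages of the brain. They maintain their own numbers by slow local division, depend on the CSF1 receptor, and multiply around injury and tumors.

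Each suffix held 2879 to 10217 barcodes and 9745192 to 24393841 UMIs, and the median barcode of a suffix held 1536 to 3503 UMIs. The suffixes were not independent in their barcodes. Of all barcodes, 14722 (36.4%) had a barcode sequence that was also found in another suffix, 13400 (33.2%) one found in 3 or more suffixes. These were mostly shallow, with a median of 929 UMIs against 3137 for the rest, and made up 87.8% of the barcodes under 1000 UMIs but 4.69% of those with 3000 UMIs or more. Among replicating microglia 44 barcodes (4.07%) were shared in this way, among comparison microglia 998 (7.04%) and among mitotic microglia 25 (13.2%). The share of replicating microglia, the counts of called genes and the ratios of the main genes were therefore also computed without shared barcodes.

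Replicating microglia were 2.81% of microglial barcodes (1081 of 38493, 95% exact binomial interval 2.65% to 2.98%, which like all intervals here covers counting error only). Across the 6 suffixes the share was lowest at 1.13% (86 barcodes in suffix 1), had a median of 2.19% and was highest at 6.15% (365 barcodes in suffix 4). Suffix 4 alone held 33.8% of all replicating microglia, and its interval of 5.55% to 6.79% lay above those of all the other suffixes. Without shared barcodes the share was 4.28% (1037 barcodes), again lowest in suffix 1 at 1.97% and highest in suffix 4 at 8.30%. Because the rule counts UMIs, the share also moves with depth. After each barcode was thinned to 2000 UMIs, with 16014 shallower microglial barcodes left out, 418 of 22479 barcodes met the rule (1.86%), against 4.65% of the same barcodes at full depth, and the share per suffix ran from 0.815% to 4.02%, with suffix 4 still highest. Mitotic microglia were less frequent, between 0.143% and 0.978% of the microglia of a suffix, with suffix 3 lowest and suffix 4 highest. The number of replicating microglia for each mitotic one ran from 2.97 in suffix 1 to 15.5 in suffix 3, where only 4 barcodes were mitotic.

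**Figure D1:**
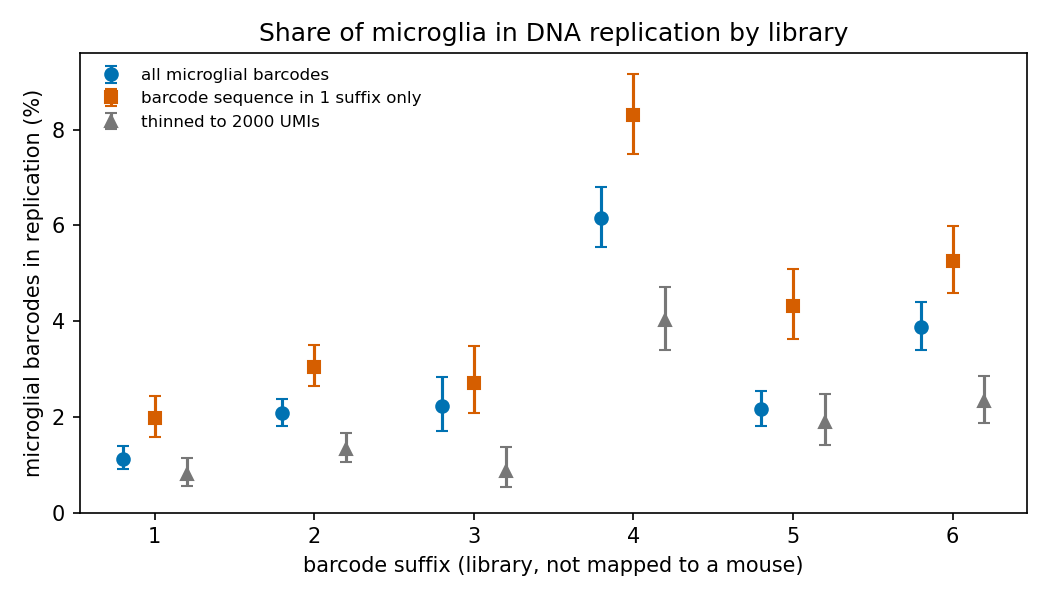
Share of microglial barcodes in DNA replication, in percent, for each of the 6 barcode suffixes, over all barcodes, over barcodes whose sequence is in 1 suffix only, and after thinning to 2000 UMIs; bars are 95% exact binomial intervals, which cover counting error only. Suffix 4 is highest in each of the 3 ways of counting, at 6.15%, 8.30% and 4.02%.

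Free RNA puts stray UMIs into every droplet, so the replication genes were also counted in cells that should not be microglia. In 90 barcodes of at least 2000 UMIs with the markers of choroid plexus, an epithelium, 33 (36.7%, interval 26.8% to 47.5%) held at least 1 UMI on the 10 replication genes at a median depth of 4815.5 UMIs. In microglia of at least 2000 UMIs outside the members the share was 31.4% at a median of 3278 UMIs, and the level was 120 UMIs per 1000000 against 114 per 1000000 in choroid plexus. The choroid plexus barcodes were deeper and also held UMIs of microglial genes, so they give no exact background. Of the 90 choroid plexus barcodes 1 (1.11%) held 4 or more of these UMIs. Among the 1149 barcodes that passed the limits on genes and mitochondrial UMIs but not the one on microglial genes, 17 (1.48%) met the replication UMI rule, beside the 2.81% of microglia.

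The label was checked on 4 microglial genes that the rule did not use. The paper describes 4 clusters of bone-marrow-derived macrophages and reports core microglial genes, at low levels, in 1 of them. The microglial limit kept 38493 of the 39642 barcodes that passed the limits on genes and mitochondrial UMIs. Such macrophages can therefore be among the members and both reference sets, and 1 UMI on the 4 genes cannot tell them from microglia. Their number was not measured. Each of the 1081 members held at least 1 UMI on Selplg, Cx3cr1, Gpr34 or Olfml3, as did 51 of the 90 choroid plexus barcodes (56.7%). The summed level of the 4 genes was 6353 CPM (UMIs per 1000000 UMIs) in replicating microglia, 7411 CPM in comparison microglia and 2583 CPM in choroid plexus barcodes. Cx3cr1, the fractalkine receptor, lay at 1690, 1810 and 2261 CPM (lowest, median and highest suffix) in replicating microglia and at 1711, 1767 and 2246 CPM in comparison microglia. The ranges overlapped over nearly their whole length, and the ratio of the pooled levels was 1.01. Members were deeper, with a median of 4338 UMIs against 3179 and 1774 genes against 1321, and 186 of them (17.2%) held over 2500 genes, the limit that the study used against doublets, against 221 comparison barcodes (1.56%). No doublet caller was run.

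The 10 genes of the rule are absent from the comparison by construction, so their levels are a description of the choice. Pooled over members, Mcm3 was at 238 CPM, Tipin, which with Timeless steadies the fork, at 186 CPM, Mcm6 at 159 CPM and Mcm5 at 152 CPM. Mcm2 and Mcm7 were each at 133 CPM, Lig1, the ligase of the lagging strand, at 118 CPM, Mcm4 at 117 CPM, Hells, a chromatin remodeller, at 111 CPM and Rrm1, the large subunit of ribonucleotide reductase, at 90.0 CPM. Over the suffixes Mcm2 ran from 117 to 160 CPM, Mcm5 from 126 to 174 CPM and Rrm1 from 80.8 to 116 CPM. Hells was lowest in 1 suffix at 62.8 CPM and highest at 122 CPM. Each member had to hold 4 or more of these UMIs, so the spread says little about differences between suffixes. At the threshold, 279 members (25.8%) held exactly 4 replication UMIs, 474 microglial barcodes just missed it with 3 and fewer mitosis UMIs, and 256 members (23.7%) held 10 or more.

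To see these genes in UMIs that had not chosen the cells, the UMIs of each barcode were split at random into 2 parts, 477 barcodes were chosen by the same rule in 1 part, and the other part was measured. The 10 replication genes were all higher there than in 17210 comparison barcodes, in 6 of 6 suffixes each. Mcm5 was at 172 CPM against 4.96 CPM (34.6-fold, 95% interval 28.1 to 42.7), Mcm2 at 130 CPM against 7.77 CPM, Hells at 124 CPM against 2.74 CPM and Rrm1 at 96.0 CPM against 15.1 CPM. Both parts come from the same cells, so this describes the stability of the choice and is not a replicate.

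The promoters of these genes show what they share beyond the rule. E2F factors are known to bind words of the form TTTCCCGC, TTTCGCGC, TTTGCCGC or TTTGGCGC, and late cell cycle genes often hold TTTGAA, the CHR element that the DREAM complex binds. Both were searched on both strands from 250 bases before to 50 bases after the RefSeq start (GRCm38.p6). An E2F word stood in 6 of the 8 replication genes of the rule for which a promoter was matched by symbol (75%), in 0 of the 8 mitosis genes, and in 704 of 27025 genes in all (2.6%). The TTTGAA word stood in 7 of the 8 mitosis genes (87.5%), in 1 of the 8 replication genes (12.5%) and in 5466 genes in all (20.2%). Outside the rule, an E2F word stood in 33 of 110 genes of the replication lists described below (30%) and in 1 of 36 genes of the mitosis list (2.78%), and the TTTGAA word in 20 of 110 (18.2%) and 25 of 36 (69.4%). Stretches of 3 replication genes and 1 mitosis gene show the contrast, each ending before the start and outside of any GENCODE gene, with E2F words of either strand in capitals in the first 3 and TTTGAA words in the last. Mcm5 (chr8:75109336-75109387, plus strand) holds E2F words of both strands in overlap, and Mcm6 (chr1:128359725-128359835, minus strand) holds such a pair and one more word nearer to the start. Dtl (chr1:191575545-191575572, minus strand), a ubiquitin ligase adaptor at the fork, holds its word in the last 8 bases before the start, and Mki67 (chr7:135716452-135716515, minus strand) holds a pair of TTTGAA words.
Mcm5: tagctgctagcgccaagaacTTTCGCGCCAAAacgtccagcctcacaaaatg
Mcm6: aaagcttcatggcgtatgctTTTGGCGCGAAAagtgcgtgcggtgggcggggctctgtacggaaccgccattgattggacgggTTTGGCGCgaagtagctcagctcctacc
Dtl: atcagaaagcgtgacgtcagTTTGGCGC
Mki67: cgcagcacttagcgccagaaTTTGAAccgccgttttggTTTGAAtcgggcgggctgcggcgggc
These are matches of letters and say nothing about binding in these cells.

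Outside the rule, 8904 genes reached 5 CPM over microglial barcodes of at least 2000 UMIs. A gene was called when its pooled CPM differed at least 2-fold and in the same direction in all suffixes, each of which had over 20 members. By this rule 239 genes (2.68% of those measured) were higher in replicating than in comparison microglia and 15 (0.168%) were lower, while the median gene stood at a ratio of 1.06. A value given below as a ratio, or with no unit, is the pooled CPM of replicating microglia over that of the other set. With the matrix treated as 1 pooled sample no gene was tested. Cells chosen on 18 cell cycle genes will differ in genes that move with them, so these counts describe the cells and are not evidence for the rule. Of the 239 genes, 186 had a matched promoter, and 38 of these (20.4%) held an E2F word, against 345 of 7060 (4.89%) over all measured genes with a promoter. The TTTGAA word also stood in 38 of the 186 (20.4%), against 973 of the 7060 (13.8%).

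Rrm2 had the largest ratio to comparison microglia, which hold no mitosis UMIs, of the called genes with at least 50 CPM. It encodes the small subunit of ribonucleotide reductase, the partner of Rrm1 (chr12:24708241-24714146, plus strand, GRCm38). It was at 14.96, 48.2 and 84.7 CPM in replicating microglia (lowest, median and highest suffix) and at 0.163, 0.275 and 0.580 CPM in comparison microglia, and the pooled ratio was 164 (interval 99.6 to 291) on 305 against 16 UMIs. Tk1, the thymidine kinase of the salvage pathway, was at 50.9, 58.9 and 70.5 CPM against 0.490, 1.08 and 1.40 CPM, a ratio of 63.5. Both genes were close to silent in comparison microglia of every suffix, and their ranges did not overlap. The order depended on the reference: against all other microglial barcodes of at least 2000 UMIs, mitotic ones included, Rrm2 was at 11.0, below E2f1 at 18.8 and Ung at 17.6, each higher in 6 of 6 suffixes. Pclaf, a PCNA-binding factor, followed at a ratio of 54.9 and Dtl at 31.3. The levels of Tk1 and Pclaf followed the mitosis UMIs of the members: in members with none, 1, and 2 or more, Tk1 was at 24.9, 60.7 and 248 CPM and Pclaf at 14.8, 43.2 and 300 CPM, and the 129 members of the last set held 234 of the 331 Pclaf UMIs. Stmn1, a tubulin-binding protein and no part of the replication machinery, was at 224 CPM against 9.73 CPM, a ratio of 23.1.

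The lists of the replication pathway held 135 genes outside the rule, of which 95 reached the filter. Of these, 65 were called higher and 0 lower, and their median ratio was 2.69. The filter was taken over microglia that include the members, so that 15 of the 95 genes were under 5 CPM in the comparison itself and could only be called higher, as 14 were. Among the 80 list genes at 5 CPM or more in the comparison, 51 were called higher and 0 lower, with a median ratio of 2.43, beside 2.25% of all such genes. At any fold 80 were higher in every suffix, as were 16.7% of all measured genes. The 40 genes below the filter were each at least 2-fold higher in the pooled values, and over the whole list 134 of 135 genes were above 1. Summed over all 135 genes, the level was 7161 CPM in replicating microglia (6266 to 7557 CPM over suffixes) and 2583 CPM in comparison microglia (2487 to 2651 CPM). Without shared barcodes 67 were called higher, and without barcodes that carried other immune cells' markers 70.

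**Figure D2:**
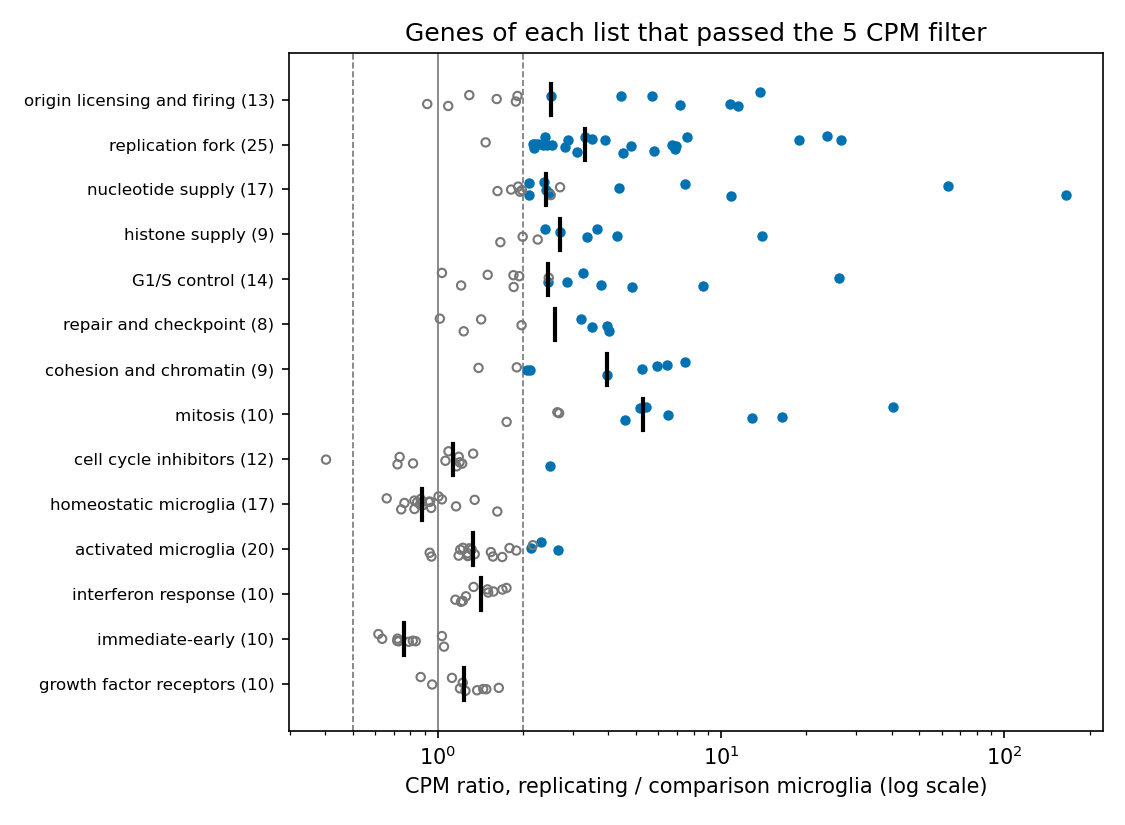
Ratio of pooled CPM in replicating to comparison microglia, on a log scale, for the genes of each list that passed the 5 CPM filter (number in parentheses); filled blue points were called 2-fold different in every suffix, open points were not, black bars are list medians, and dashed lines mark ratios of 0.5 and 2. The replication and mitosis lists lie to the right, with Rrm2 at 164 against this comparison set. No homeostatic, interferon or immediate-early gene was called, beside 2.68% of all measured genes called higher and 0.168% called lower.

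Of 20 genes of origin licensing and firing, 13 were measured and 7 called higher. Cdt1, which loads the MCM helicase, was at 32.9, 62.9 and 81.1 CPM against 4.21, 5.98 and 6.65 CPM, a ratio of 11.4. Gmnn, the inhibitor of Cdt1 that prevents a second round of licensing, was at 64.4 CPM against 4.69 CPM, a ratio of 13.7. The licensing factor and its inhibitor were thus both high in the same pool of cells. Gins2, a subunit of the active helicase, had a ratio of 10.8 and Orc6 of the origin recognition complex one of 4.42. Mcmbp, which binds MCM subunits, was higher in 6 of 6 suffixes but below the fold limit, at 1.91. The core origin subunits Orc2, Orc3, Orc4 and Orc5, named after their values were seen, stood between 0.918 and 1.89.

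At the fork 24 of 25 measured genes were called higher, and all 25 were higher in every suffix. Pcna, the sliding clamp, was at 149, 222 and 258 CPM against 76.3, 101 and 115 CPM, a ratio of 2.16. It was already expressed in comparison microglia, unlike Prim1, the primase, which was at 57.5 CPM against 3.06 CPM (ratio 18.8). Ung, which removes uracil from DNA (chr5:114130386-114139323, plus strand), was at 38.9, 51.0 and 59.8 CPM against 1.40, 2.30 and 3.01 CPM, a ratio of 23.6. Rfc2 of the clamp loader was at 2.52, Fen1, which trims Okazaki fragments, at 5.78, and Rpa2, which coats single-stranded DNA, at 6.71. The 1 fork gene that was not called was Rnaseh2c at 1.48.

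For the supply of nucleotides, 10 of 17 measured genes were called higher. Beside Rrm2 and Tk1 these included Dut, which keeps uracil out of DNA, at 68.4 CPM against 6.32 CPM, and Tyms, the thymidylate synthase, at 71.9 CPM against 9.62 CPM. Impdh2, of guanine nucleotide synthesis, was at 2.37, Dctpp1, a pyrophosphatase of dCTP, at 2.41, and the nucleoside diphosphate kinase gene Nme1 at 1.92, below the limit. The other genes not called were Shmt2, Mthfd1, Ctps, Gart, Ppat and Atic, at 1.62 to 2.70, and each of the 17 was above 1.

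Among the genes of histone supply 6 of 9 measured were called higher and 0 lower, with a median ratio of 2.69, and all 11 of the list were above 1. Slbp, which binds the stem-loop of replication-dependent histone mRNA, was at 200, 233 and 339 CPM against 90.3, 102 and 111 CPM (ratio 2.39), and the histone acetyltransferase Hat1 and the chaperone Nasp were at 3.65 and 4.29. H2afz, which encodes the variant H2A.Z, was at 643 CPM against 322 CPM, just below the limit at 1.99. The 67 genes whose symbols begin with Hist, a list added after the files were seen, summed to 455 CPM against 607 CPM, lower in 6 of 6 suffixes, though 29 of the 67 genes were above a ratio of 1 and 16 of the 48 below the filter were at least 2-fold higher in the pooled values. Of 19 measured, 1 was called lower (Hist1h2be) and 0 higher. Hist1h1c, with the highest CPM, was at 119 CPM against 206 CPM (ratio 0.58), while Hist1h2ap was at 48.2 CPM against 24.5 CPM (ratio 1.96). In mitotic microglia the same sum was 1966 CPM, and in members with 2 or more mitosis UMIs 771 CPM. Replication-dependent histone mRNAs lack poly(A) tails and near-identical copies share reads, so these levels from a poly(A)-primed 3' assay are uncertain.

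In cohesion and chromatin copying 7 of 9 measured genes were called. Ezh2, the methyltransferase of the Polycomb complex, was at 80.9 CPM against 10.8 CPM (ratio 7.46), Hmgb2 at 531 CPM against 258 CPM (2.06) and the cohesin subunit Smc1a at 2.12, with Smc3 below the limit at 1.90. Lmnb1, a lamin of the nuclear envelope that was in no list, stood at 7.11. Among repair and checkpoint genes 4 of 8 were called, with Usp1, which acts on PCNA, at 4.02 and the mismatch repair gene Msh6 at 3.20. Chek2, the checkpoint kinase, was at 1.02 with 3 of 6 suffixes higher.

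In the control of G1/S, 7 of 14 measured genes were called higher and 0 lower. E2f1, an activator of the replication genes (chr2:154559407-154569892, minus strand), was at 50.9, 68.4 and 77.1 CPM against 1.98, 2.26 and 3.90 CPM, a ratio of 26.2 (interval 21.2 to 32.4). Tfdp1, its dimer partner, was at 67.0 CPM against 17.8 CPM (3.76). Of the cyclin genes, Ccnd1, the D cyclin of early G1, was at 124, 151 and 198 CPM in replicating and at 122, 142 and 181 CPM in comparison microglia, with ranges that overlapped and a ratio of 1.03. The other D cyclin genes were not called either: Ccnd2 was at a ratio of 1.85, higher in 6 of 6 suffixes, and Ccnd3 at 53.1 CPM against 35.4 CPM, higher in 5 of 6. Their kinase gene Cdk4 was at 1.94. The E cyclin genes, below the filter and named after their values were seen, were near 0 in comparison microglia: Ccne1 was at 43.3 CPM against 0.285 CPM and Ccne2 at 27.8 CPM against 0.347 CPM. Most of these UMIs came from the 129 members with 2 or more mitosis UMIs, where Ccne1 was at 187 CPM and Ccne2 at 132 CPM, against 16.3 CPM and 9.87 CPM in the 818 members with none.

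Of 12 measured inhibitors of the cell cycle 1 was called higher and 0 lower. The 1 called was Cdkn2c, a CDK4/6 inhibitor and itself a known E2F target, at 18.3 CPM against 7.32 CPM (2.50). Cdkn1a (p21) was at 470, 687 and 971 CPM against 450, 513 and 565 CPM and was higher in 6 of 6 suffixes, by a ratio of 1.19. Btg2 and Btg1, antiproliferative genes that also respond to dissociation, were lower in 6 of 6 suffixes, at 0.72 and 0.82, and E2f4, a repressor E2F, was at 1.17. Cyclin G2 was the 1 gene called lower among genes of at least 50 CPM. Ccng2 marks cells outside the cycle and is a target of FOXO factors, and was at 57.2, 75.1 and 95.8 CPM against 128, 152 and 171 CPM, with no overlap and a ratio of 0.48. Txnip, a brake on glucose uptake, and Tsc22d3 (GILZ), a glucocorticoid target, were lower in 6 of 6 suffixes without reaching the limit, at 0.57 and 0.55, as was Sox4 at 0.51. With the comparison narrowed to 1081 barcodes matched to the members on UMIs within each suffix, Ccng2 was at 0.57 and Txnip at 0.82, and after thinning to 2000 UMIs they were at 0.47 and 0.63. Ccng2 stayed lower in every suffix but was no longer called in the matched set, with 3 or more replication UMIs (0.54), without suffix 4 (0.51), with each suffix given equal weight (0.51) and in the random split of the UMIs (0.505).

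Of the members, 818 (75.7%) held no UMI on the 8 mitosis genes and 263 held at least 1. Of 42 mitosis genes outside the rule 10 were measured and 7 called higher, and the 32 below the filter were all at least 2-fold higher in the pooled values. The filter was taken over microglia that include the members and the mitotic barcodes. A list gene near 0 in the comparison, such as Birc5 at 0.551 CPM, could therefore only be called higher. With a filter of 20 CPM 0 were called. Cks1b, a subunit that binds cyclin-dependent kinases, was at 5.17, the condensin genes Smc2 and Smc4 were at 6.49 and 4.59, and Cks2, with the highest CPM, was at 1.75. The sum of the 42 genes was 726 CPM in replicating, 131 CPM in comparison and 5859 CPM in mitotic microglia. Within the members the sum followed the mitosis UMIs of the rule, from 347 CPM without any to 543 CPM with 1 and 2900 CPM with 2 or more. The replication lists moved in the same order, at 5870, 7005 and 14039 CPM.

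**Figure D3:**
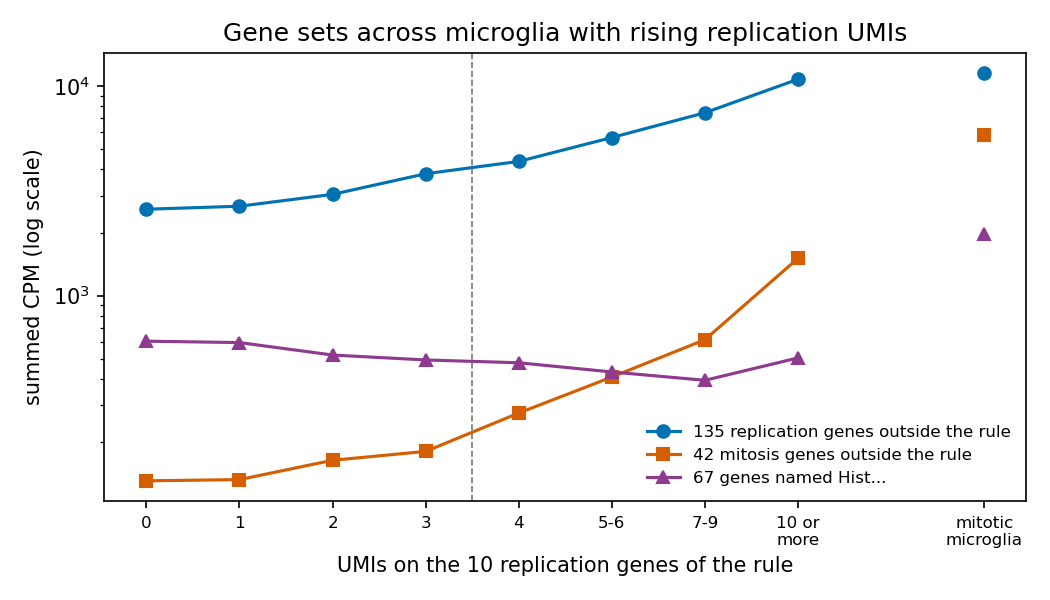
Summed CPM (log scale) of 135 replication genes, 42 mitosis genes and 67 genes named Hist, none of them in the rule, in comparison microglia (0 UMIs), in microglia of at least 2000 UMIs with 1 to 3 UMIs on the 10 replication genes and in members by the number of these UMIs, with mitotic microglia at the right; the dashed line marks the threshold of 4 UMIs. The replication genes increase from 2583 to 10772 CPM, and the Hist genes lie between 395 and 505 CPM in the bins of members, below 607 CPM in the comparison.

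Ordered by the UMIs of the rule, the sum of the replication lists was 2583 CPM in comparison microglia, 2670 CPM at 1 UMI, 3042 CPM at 2 and 3815 CPM at 3. Just inside the threshold, at 4 UMIs, it was 4368 CPM, and at 10 or more it was 10772 CPM. Barcodes at 3 UMIs lay nearer to those at 4 than to the comparison. The median depth also differed, from 3179 UMIs in the comparison to 5106.5 UMIs at 10 or more. Rrm2 was at 5.18 CPM in members without mitosis UMIs, 26.9 CPM in those with 1 and 335 CPM in those with 2 or more. Over the same 3 sets Ung was at 46.4, 52.6 and 87.2 CPM and Cdt1 at 55.5, 61.9 and 117 CPM, a much flatter course.

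Set against mitotic microglia, which 5 suffixes held in numbers of 20 or more, 149 genes (1.67%) were called higher in replicating microglia and 197 (2.21%) lower. With 1 suffix left out the count of higher genes was 157 to 282, highest without suffix 4. In the pooled values the mitotic microglia also carried more RNA of other immune cells, though not in every suffix. Granulocyte genes summed to 3123 CPM in mitotic and 531 CPM in replicating microglia, carried by 1 suffix at 20659 CPM beside a median of 194 CPM in mitotic ones. NK cell genes summed to 316 CPM against 170 CPM and monocyte genes to 146 CPM against 80.0 CPM. Over all 6 suffixes the granulocyte and monocyte sums were each higher in replicating microglia in 3, and the NK cell sum in 2. Without barcodes with such markers 268 genes were called higher, and their part in the result was otherwise not tested. Of the 95 measured genes of the replication lists, 4 were called higher and 15 lower, with a median ratio of 0.92. The 4 were Ung, E2f1, Ppat and Mms22l. Summed over all 135 list genes, the level was 7161 CPM in replicating and 11485 CPM in mitotic microglia. The ratio of these sums was 0.62, and the sum was higher in replicating microglia in 0 suffixes. The 10 replication genes of the rule summed to 758 CPM in mitotic microglia. That set was thus not free of replication transcripts, and the contrast is not one of replication against mitosis alone. Ung was at 0, 9.91 and 18.8 CPM in mitotic microglia, below every suffix of the replicating ones, and its ratio was 5.37 (interval 2.79 to 11.9). E2f1 was at 12.8, 24.2 and 36.4 CPM in mitotic microglia, a ratio of 2.81, and Cdca7, the partner of Hells in chromatin remodelling, was at 80.2 CPM against 29.6 CPM (2.71). Myc was at 135, 177 and 238 CPM in replicating, 99.9, 113 and 142 CPM in comparison and 18.2, 59.5 and 75.1 CPM in mitotic microglia, so that the highest mitotic suffix lay below the lowest of both other sets. Its ratio to mitotic microglia was 3.20. Cables1, Ppan, which serves ribosome assembly, Snx29 and the chemokine receptor Ccr6 were also called, at 2.40 to 2.91.

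Lower than in mitotic microglia were the 10 measured mitosis genes, all of which were called, with a median ratio of 0.18. The 2 sets were chosen for opposite orders of mitosis and replication UMIs, so this direction follows from the choice. The lowest were Cenpf of the kinetochore at 0.031, Pttg1 (securin) at 0.057, Birc5 (survivin) at 0.071 and Cdca8 of the chromosomal passenger complex at 0.081. The histone variant H2afx followed at 0.097, with 32.7 CPM in replicating and 336 CPM in mitotic microglia. Rrm2, Tk1 and Tyms, high against the comparison, were higher still in mitotic microglia, at 0.14, 0.35 and 0.42. Cdkn1a was at 1099, 1684 and 2842 CPM in mitotic microglia, above every suffix of the other 2 sets.

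**Figure D4:**
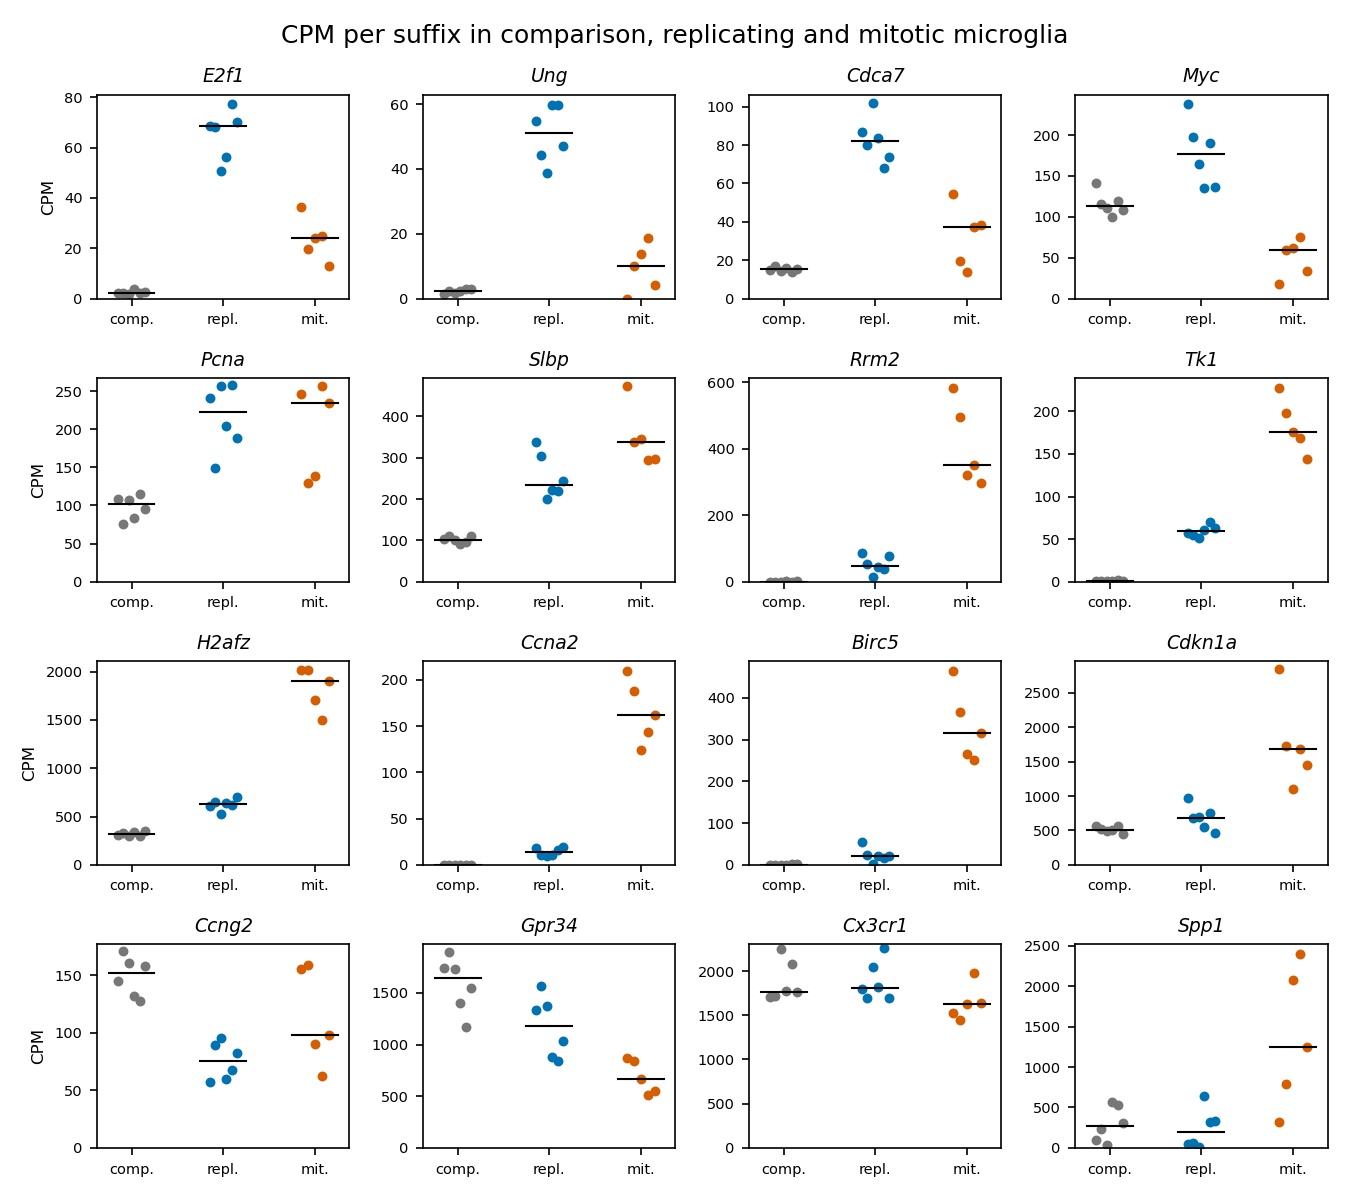
CPM of 16 genes in comparison (grey, 6 suffixes), replicating (blue, 6 suffixes) and mitotic microglia (orange, the 5 suffixes with at least 20 such barcodes); each point is a suffix and black bars are medians. E2f1, Ung, Cdca7 and Myc peak in replicating microglia, Rrm2, Tk1, H2afz, Ccna2, Birc5 and Cdkn1a are highest in mitotic ones, Ccng2 is lower in replicating than in comparison microglia, and Cx3cr1 overlaps among the 3 sets.

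Genes of microglial identity differed by less than the replication genes. Of 17 homeostatic genes all were measured and none was called, with 8 lower and 3 higher in every suffix at any fold and a median ratio of 0.88 beside 1.06 for all genes. Over all genes 7.77% were lower and 16.7% higher in every suffix, and 0.168% were called lower. No lower call among 17 genes lies near that last share, so it is no sign that these genes kept their level. Gpr34, a receptor for lysophosphatidylserine, was lowest, at 843, 1184 and 1570 CPM against 1170, 1642 and 1899 CPM, with overlapping ranges and a ratio of 0.66. Selplg was at 0.74, Csf1r at 0.87 and Sparc at 1.03. Those higher in every suffix were Gpr84, a receptor that marks activation, at 1.62, Fcrls at 1.35 and Sparc. Of the genes of the microglial rule, P2ry12 was at 2755 CPM against 3962 CPM, Tmem119 at 2067 CPM against 2428 CPM and Cst3 at 50103 CPM against 68148 CPM. P2ry13, a nucleotide receptor, was at 0.76. With the comparison matched on UMIs within suffixes, Gpr34 was at 0.90 and P2ry13 at 1.00. After thinning to 2000 UMIs they were at 0.69 and 0.80, and with each suffix given equal weight at 0.74 and 0.82, lower in 6 of 6 suffixes in both settings. What moved them in the matched set was not tested.

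The activated microglia list, with lipid, chemokine and antigen presentation genes, had 3 of 20 measured genes called higher and a median ratio of 1.33. The 3 were the galectins Lgals1 (2.13) and Lgals3 (2.32) and Vim (2.66), which monocytes also express. Against UMI-matched comparison barcodes Lgals1 was at 1.03 and Vim at 0.51, and with at most 2500 genes they were at 1.67 and 1.37, so that neither was called in these settings. After thinning Lgals1 was at 2.06 in 6 of 6 suffixes, while Vim was at 2.62 after thinning and 2.84 without shared barcodes but higher in 5 of 6 suffixes in both, and was not called. Of the abundant genes Apoe was at 4851, 10581 and 14711 CPM against 5197, 11213 and 19862 CPM, a ratio of 0.95 that was lower in 6 of 6 suffixes. It was 0.63 against UMI-matched barcodes, again lower in 6 of 6, and 1.09 without shared barcodes, with 4 of 6 suffixes lower. The chemokine genes Ccl12, Ccl4 and Ccl3 were at 1.32, 1.18 and 1.20. Ccl2 was at 1.69, higher in 5 of 6 suffixes, but at 1.03 in the matched comparison and at 1.78 after thinning. Spp1 (osteopontin) was at 8.98, 192 and 644 CPM against 40.1, 273 and 570 CPM and was higher in 2 of 6 suffixes, so that its pooled ratio of 1.29 had no common direction, and without suffix 4 it was 0.88. It was 0.63 against UMI-matched barcodes (lower in 5 of 6), 0.84 with at most 2500 genes (lower in 6 of 6) and 1.74 without shared barcodes (higher in 3 of 6). In mitotic microglia Spp1 was at 1539 CPM, and the ratio of 0.23 was called.

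All 10 interferon response genes were measured and none was called, beside 2.68% of all measured genes called higher, with ratios from 1.15 to 1.75. Cxcl10 was at 147 CPM against 84.3 CPM, Isg15 at 80.2 CPM against 53.2 CPM, and Irf7 at a ratio of 1.497. The immediate-early genes, which tissue dissociation induces, were lower on the whole: 8 of 10 were lower in every suffix and none was called. Of all measured genes 7.77% were lower in every suffix and 0.168% were called lower. Fos was at 6796, 8474 and 11499 CPM against 8773, 10998 and 12557 CPM (ratio 0.72), Junb was at 0.79 and Jun at 0.82. Against mitotic microglia 9 of the 10 were higher in every suffix used, as were 7.58% of all measured genes, though only Nr4a1 reached the limit, at 2.04.

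Of the receptors and ligands that could drive microglial growth, with Myc and Spi1, 10 were measured and none was called. At any fold 5 of the 10 were higher and 2 lower in every suffix, beside 16.7% and 7.77% of all measured genes, and the median ratio was 1.24. Csf1r was at 3006, 3105 and 3821 CPM against 3276, 3610 and 4035 CPM, and its ligand genes were low: Csf1 was at 21.6 CPM against 17.7 CPM, and Il34 had 0 UMIs in both sets. The receptor chains for GM-CSF were higher at Csf2rb (1.48, 6 of 6 suffixes), Csf2rb2 (1.64, 5 of 6) and Csf2ra (1.197, 6 of 6), and Il4ra was at 1.45 in 6 of 6. Myc, downstream of such receptors, was at 1.38 and Igf1r at 1.25, both in 6 of 6. Spi1 (PU.1) was at 0.96 and Tgfbr2 at 1.12. Il1rl1, the receptor of IL-33, had 17 UMIs over all replicating microglia, 2.99 CPM (interval 1.74 to 4.79) against 1.77 CPM, and its partner Il1rap had 18, at 3.17 CPM against 2.96 CPM. Il3ra was at 4.04 CPM against 4.14 CPM, and Flt3 and Kit had 5 UMIs each in replicating microglia, so that differences in these genes were not detectable at this depth.

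Markers of NK cells, monocytes and granulocytes were higher in the pooled values of replicating microglia but not in every suffix, none was called, and their part in the results was not tested beyond leaving such barcodes out. The 4 NK cell genes summed to 170 CPM against 30.7 CPM, higher in 4 of 6 suffixes, led by Gzma at 90.4 CPM, with a range over suffixes from 0 to 172 CPM. The 4 monocyte genes summed to 80.0 CPM against 29.2 CPM, higher in 4 of 6 suffixes, led by Ccr2. The 5 granulocyte genes summed to 531 CPM against 213 CPM, but to 48.0 CPM against 111 CPM in the median suffix and higher in 2 of 6, led by S100a8, of which suffix 5 held 946 of 1408 UMIs. At least 3 UMIs over these 3 lists together stood in 60 members (5.55%) and 149 comparison barcodes (1.05%). The ratio of Gzma, 5.20, was 1.17 against UMI-matched comparison barcodes and 2.55 with at most 2500 genes. Without the barcodes with such markers Gzma was at 1.38, Vim at 1.64 and Lgals1 at 1.66, while Rrm2 was at 181, E2f1 at 28.5 and Pcna at 2.25. Genes of border macrophages summed to 15.6 CPM against 8.22 CPM, with Lyve1 and Cbr2 at 0 in members, and those of dendritic cells to 17.4 CPM against 17.9 CPM, with Clec9a at 0. The 3 T cell genes had 6 UMIs, the B cell genes 1 and the red cell genes 1 in all members. The 3 genes of endothelium summed to 8.26 CPM against 8.40 CPM, led by Pecam1, with Cldn5 at 0 in members. Those of astrocytes summed to 81.2 CPM against 115 CPM, all of it in members from Slc1a3, with Gfap and Aqp4 at 0, and those of oligodendrocytes to 8.44 CPM against 8.63 CPM, led by Mbp, with Mog at 0. The 5 choroid plexus genes, led by Ttr, were lower in the pooled values (114 CPM against 231 CPM) but higher in 2 of 6 suffixes.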

How the data were processed

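The authors made 10x Chromium 3' (v2) libraries, aligned reads to mm10 with STAR in Cell Ranger 3.1, joined the 6 libraries without batch correction and analysed them in Seurat 3.1.5. The deposited matrix holds raw counts of UMIs for 31053 genes and 40411 barcodes (105560763 UMIs); 0 columns of per-sample values were left unused. Libraries were sequenced in batches whose members are not named, so batches and suffixes cannot be told apart.

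Counts were summed over barcodes and divided by the summed UMIs (CPM). Calls needed a ratio of at least 2 or at most 0.5 and 1 direction in every suffix with 20 or more members, among genes of at least 5 CPM. The 18 rule genes and the 6 microglial genes were left out. Intervals are exact (Poisson, binomial or conditional, 95%) and cover counting error only. No test was run, since members were chosen on UMIs of the same cells and suffixes were not assigned to mice. Steps were tested on simulated data. Members and gene lists were chosen with earlier results of these data known. Named genes were the rule genes, the 15 called genes with the highest and 10 genes with the lowest ratio at 50 CPM or more, the 4 most abundant of each list, all growth factor receptor genes, and the 8 highest and 5 lowest against mitotic microglia; others are named as chosen after their values were seen. Some genes that this rule names are not reported here. Gene positions are from GENCODE M21. Python 3.11.15, numpy 2.4.6, scipy 1.17.1, pandas 2.3.3 and matplotlib 3.10.9 were used.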

Additional observations from a re-analysis of the deposited data

How the results depend on the processing

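No paired analysis was possible because only the deposited labels were used, and no label numbers the suffixes as replicates. Members were also chosen on UMIs of the same cells, so the result comes from no test. With the match in the paper's supplement, members and comparison microglia could be paired within the library of each mouse. That pairing was not tested. Members and comparison microglia lie in the same suffixes, and each call asks for 1 direction within every suffix. The share of microglial barcodes in replication (2.81% of 38493) was 2.38% with at most 2500 genes, 4.04% with 3 or more replication UMIs, 1.62% (625 barcodes) with 6 or more, 1.86% (418) after thinning to 2000 UMIs, and 4.28% without shared barcodes. It kept within its counting interval under a mitochondrial limit of 10%, microglial limits of 1% and 5%, and without barcodes with markers of other immune cells. Leaving out 1 suffix gave 716 to 1019 members, lowest without suffix 4, and a share of 2.20% to 3.22%. The number of genes higher than in the comparison was 428 with a filter of 1 CPM and 76 with 20 CPM, and 197 to 310 under the other alternatives. The 15 lower genes were the least stable count: 31 with at most 2500 genes, 9 with 3 or more replication UMIs, 40 with 6 or more, 8 with UMI-matched comparison barcodes, 38 after thinning, 51 and 4 at 1 and 20 CPM, 70 with the UMIs split into random parts, and 16 to 27 without 1 suffix (23, 24 and 27 without suffix 2, 3 and 5). Replication list genes called higher were 23 at 20 CPM and 61 to 97 otherwise. Mitosis list genes called higher were 28 at 1 CPM, 0 at 20 CPM, and 6 to 9 otherwise. No homeostatic gene was called lower under any alternative, beside 0.168% of all measured genes in the main setting. The genes higher than in mitotic microglia, 149, were 322 with at most 2500 genes, 402 after thinning, 268 without barcodes with other immune markers, 219 without shared barcodes, and 157 to 282 without 1 suffix (224, 282, 237 and 241 without suffix 2, 4, 5 and 6). Called higher in both the main and the UMI-matched setting were 166 genes. The causes were not tested, except that a stricter filter leaves fewer genes to measure. The alternative without shared barcodes and the one without other immune markers were chosen after seeing the data. Low genes rest on few UMIs, and 189 mitotic barcodes limit the second comparison.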

Other observations

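Some genes called higher in replicating microglia were in no list. They are named after their values were seen, and no gene group was counted for them. The GTPase gene Ran was at 314 CPM against 137 CPM in comparison microglia (ratio 2.29) and its binding partner Ranbp1 at 352 CPM against 139 CPM (2.54). The tubulin genes Tuba1b and Tubb5 were at 2.28 and 2.46, the chromatin protein Dek at 2.69, the histone chaperone gene Nap1l1 at 2.97, the nucleolar gene Nop56 at 2.01 and the splicing gene Snrpd1 at 2.41. Cd72, a surface receptor of the immune system, was at 224 CPM against 90.0 CPM (2.48). Of the 15 genes called lower, most were of low level. They included the clock output gene Dbp at 14.2 CPM against 38.4 CPM (0.37), the histone demethylase gene Kdm5b at 0.42, Crebrf at 0.37 and Ypel2 at 0.48.

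Of the 17 barcodes that met the replication UMI rule but not the limit on microglial genes, 8 held at least 3 UMIs of the monocyte markers and 3 at least 3 UMIs of the NK cell markers. At the microglial limit, 32 members held 3% to 4% of their UMIs on the 6 microglial genes, and 11 barcodes with 2% to 3% met the other conditions. The median share of UMIs on these 6 genes was 7.46% in members and 9.13% in comparison microglia.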
